A study of Homo sapiens with 8 samples.

Results

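Acetylation of histone H3 at lysine 27 (H3K27ac) was profiled in pancreatic progenitors (PPs), which had been differentiated from the human embryonic stem cell line MEL1, by sequencing of immunoprecipitated chromatin (ChIP-seq). The regions described here had an H3K27ac peak in both libraries from PPs given I-BET151 and in exactly 1 of the 2 libraries from PPs given the solvent DMSO. They were found by merging the peaks of the 4 H3K27ac libraries that shared at least 1 bp on chromosomes 1 to 22, X and Y. Of 15752 merged regions, 433 met the rule, which is 2.75% of all. No peak of DMSO replicate 1 overlapped 280 of them (1.78% of all regions), and no peak of DMSO replicate 2 overlapped the other 153 (0.971%). The presence and absence of peaks selected these regions, so the number of DMSO libraries with a peak is a property of the rule and not a result.

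All cells were kept in EF6, a B27-supplemented DMEM that contains 2 growth factors (bFGF and EGF) and an inhibitor of TGFβ signalling, and received either DMSO or 1 μM I-BET151 for 7 days. Each treatment had 2 H3K27ac libraries, and the 4 matching libraries of unprecipitated input chromatin had no peak list of their own. All libraries came from 1 cell line, which the study's methods name MEL1 INSGFP/W, with a GFP reporter at the insulin locus in every group, and the labels do not say whether replicates were separate differentiations, so their spread may be technical.

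H3K27ac is written by the acetyltransferases p300 and CBP and decorates nucleosomes that flank active promoters and enhancers. BET proteins bind acetylated lysines through their bromodomains and recruit the transcription elongation machinery. I-BET151 occupies those bromodomains. PPs are defined by the transcription factors PDX1, NKX6-1 and SOX9, and Notch signalling is known to hold progenitors back from endocrine differentiation.

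The 4 peak lists had 12312 to 14248 peaks and came from 7.76 to 9.84 M ChIP reads a library, as worked out from the deposited values. DMSO replicate 2 was the deepest library and had the longest list. Peaks lay at the starts of PDX1, NKX6-1, SOX9, ONECUT1, FOXA2, GATA4, GATA6 and MNX1 in all 4 libraries, whereas PTF1A and the defining markers NEUROG3, NEUROD1, INS, GCG and CHGA (endocrine), ALB, AFP and TTR (hepatic), POU5F1 and NANOG (pluripotency), TWIST1, PDGFRA and COL1A1 (mesenchymal) and PAX6 (neural) had 0 peaks at their starts in every library. Other genes of these programmes did carry the mark, since starts with a region called in all 4 libraries were found for 8 of 16 genes of the mesenchymal list, VIM and ZEB1 among them, 3 of 10 of the pluripotency list (LIN28A, LIN28B and SALL4), 5 of 13 of the hepatic and intestinal list, CDX2 among them, and 0 of 17 of the endocrine list.

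The sequences at the summits of 7 regions are shown first, among them promoters of cell cycle (MCM2, MCM6), Notch (HES6) and BMP (ID1) genes. All but the PDGFRB sequence hold the CCAAT or GC-box letters on which the comparisons of sequence below turn. Each sequence is the plus strand of hg38, 100 bases either side of the summit of the best-ranked peak. Capitals mark letters that were searched for on both strands, namely GGGCGGG for SP/KLF factors, CCAAT for NFY, CCGGAAG for ETS factors, GGAATG for TEAD and AGATAAG for GATA factors. A match is a description of the letters and does not show that a factor was bound.
MCM2, chr3:127598472-127598671: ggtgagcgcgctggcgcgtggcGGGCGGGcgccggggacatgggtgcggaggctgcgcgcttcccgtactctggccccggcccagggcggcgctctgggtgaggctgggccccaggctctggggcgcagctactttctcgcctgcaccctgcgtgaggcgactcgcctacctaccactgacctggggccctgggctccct
MCM6, chr2:135876113-135876312: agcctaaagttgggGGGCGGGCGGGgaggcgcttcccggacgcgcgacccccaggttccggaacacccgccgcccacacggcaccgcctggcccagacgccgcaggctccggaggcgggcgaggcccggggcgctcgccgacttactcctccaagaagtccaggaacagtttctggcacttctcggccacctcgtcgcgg
TLE2, chr19:3047277-3047476: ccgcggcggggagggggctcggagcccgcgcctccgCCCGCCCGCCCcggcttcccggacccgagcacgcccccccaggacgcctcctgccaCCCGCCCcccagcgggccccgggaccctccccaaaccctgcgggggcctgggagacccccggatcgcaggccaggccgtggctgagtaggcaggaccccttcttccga
HES6, chr2:238239682-238239881: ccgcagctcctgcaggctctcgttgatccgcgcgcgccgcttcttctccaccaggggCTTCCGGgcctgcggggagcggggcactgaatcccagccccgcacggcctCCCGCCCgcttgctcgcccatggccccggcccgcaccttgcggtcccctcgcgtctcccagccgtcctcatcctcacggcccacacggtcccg
CLGN, chr4:140427078-140427277: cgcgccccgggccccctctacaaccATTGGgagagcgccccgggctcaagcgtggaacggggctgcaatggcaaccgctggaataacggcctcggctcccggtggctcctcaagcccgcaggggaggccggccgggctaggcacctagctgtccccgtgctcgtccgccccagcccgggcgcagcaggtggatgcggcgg
ID1, chr20:31604051-31604250: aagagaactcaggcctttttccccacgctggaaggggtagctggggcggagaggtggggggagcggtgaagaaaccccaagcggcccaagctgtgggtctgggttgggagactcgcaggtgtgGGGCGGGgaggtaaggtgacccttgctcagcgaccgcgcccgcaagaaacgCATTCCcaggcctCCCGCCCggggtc
PDGFRB, chr5:150136938-150137137: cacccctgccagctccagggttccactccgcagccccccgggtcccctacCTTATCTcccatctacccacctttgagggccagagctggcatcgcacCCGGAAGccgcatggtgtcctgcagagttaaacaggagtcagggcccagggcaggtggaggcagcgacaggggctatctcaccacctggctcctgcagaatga

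Missing peaks were not particular to the DMSO libraries. The mirror class, with peaks in both DMSO libraries and exactly 1 I-BET151 library, held 855 regions (5.43%), of which 288 (1.83%) lacked a peak in I-BET151 replicate 1 and 567 (3.6%) lacked one in I-BET151 replicate 2. Among regions called in the other 3 libraries, the share missing was 2.64% in DMSO replicate 1 (95% Wilson interval 2.35 to 2.97), 1.46% in DMSO replicate 2 (1.25 to 1.71), 2.72% in I-BET151 replicate 1 (2.42 to 3.04) and 5.21% in I-BET151 replicate 2 (4.81 to 5.64). DMSO replicate 1 and I-BET151 replicate 1 thus had overlapping intervals. DMSO replicate 2, the deepest library (9.84 M ChIP reads), missed the fewest. I-BET151 replicate 2 had the shortest list and missed the most. Its depth (8.04 M) was above that of DMSO replicate 1 (7.96 M) and I-BET151 replicate 1 (7.76 M), so the shares did not follow depth throughout. Intervals of shares here count regions and cover counting error only, since regions of the same 4 libraries are not replicates of a treatment. With every list cut to its 12312 best peaks by −log10 p, 299 regions were missing from DMSO replicate 1 and 296 from DMSO replicate 2, and 210 of the 433 regions still met the rule. At a −log10 q of at least 5, the numbers were 268 and 164, so the gap between the DMSO libraries closed under the first of these settings and not under the second. Without I-BET151 replicate 2 in the rule, 426 and 257 regions were missing. For scale, 10317 regions (65.5%) were called in all 4 libraries, 443 (2.81%) were gained, with a peak in both I-BET151 libraries and neither DMSO library, and 1355 (8.6%) were lost, with a peak in both DMSO libraries alone.

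**Figure D1:**
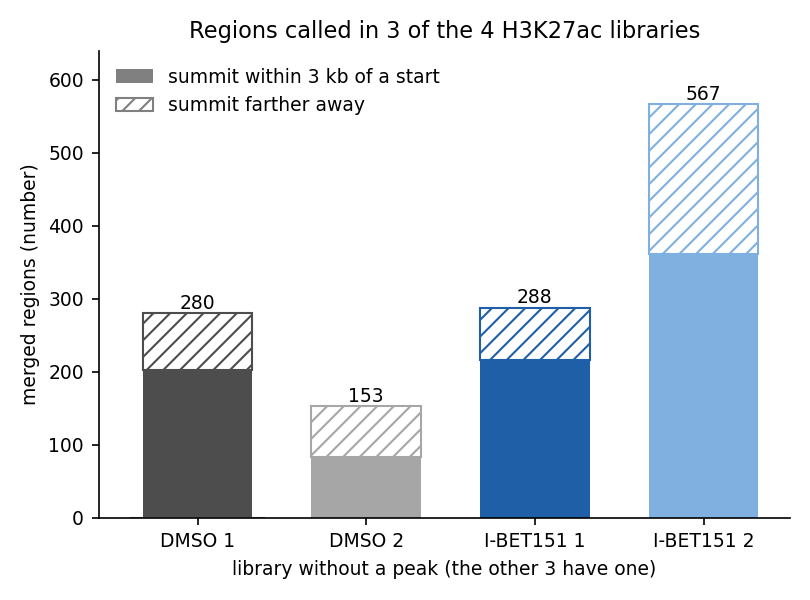
Number of merged regions with a peak in 3 of the 4 H3K27ac libraries, by the library that lacked one. Filled bars are regions with a summit within 3 kb of a protein-coding start and hatched bars those farther away. The 2 bars on the left make up the 433 regions described here, and the tallest bar is the 567 regions missing from I-BET151 replicate 2.

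The regions were weak in the DMSO library that called them. Peaks were ordered by −log10 p within each list and placed from 0% (strongest) to 100% (weakest). Where DMSO replicate 1 lacked a peak, the median position was 87.8% in DMSO replicate 2, 77.6% in I-BET151 replicate 1 and 78.8% in I-BET151 replicate 2. Where DMSO replicate 2 lacked one, it was 86.0% in DMSO replicate 1, 74.7% in I-BET151 replicate 1 and 82.7% in I-BET151 replicate 2. Regions called in all 4 libraries had medians of 37.1% to 42.7%. The peaks were also short, with a median width of 316.5 bp in DMSO replicate 2 and 330 bp in DMSO replicate 1 over these regions, where the shortest peaks in those lists measured 247 and 272 bp.

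The DMSO peak was the weakest of the 3 peaks by list position in 153 of the 280 regions missing from DMSO replicate 1 (54.6%) and in 82 of the 153 missing from DMSO replicate 2 (53.6%). It was the strongest in 59 (21.1%) and 34 (22.2%). In regions called in all 4 libraries the same DMSO libraries were the weakest of the 3 in 30.9% (DMSO replicate 2) and 33.0% (DMSO replicate 1). The mirror class had the mirror order, as the I-BET151 peak was weaker than both DMSO peaks in 69.8% of the regions missing from I-BET151 replicate 1 and in 58.2% of those missing from I-BET151 replicate 2. Both orders come from the same peak calls as the rule, which chose regions by a missing peak of the same treatment. How far that choice accounts for them was not tested.

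**Figure D2:**
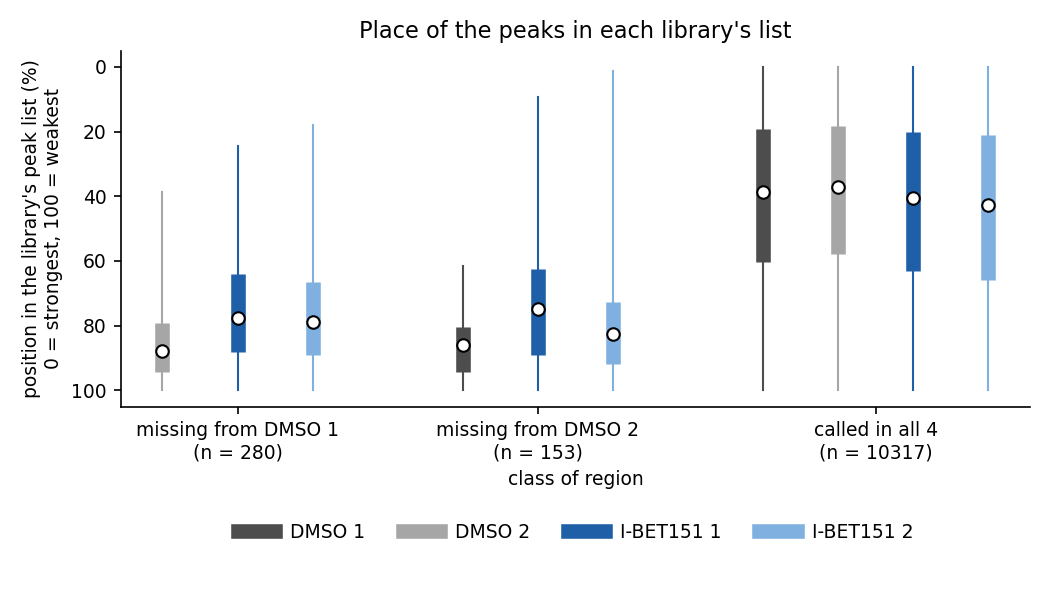
Position of each region's peak in the list of each library that called it, from the strongest (0%) to the weakest (100%) by −log10 p. Circles are medians, thick bars the middle 50% and thin lines the whole range. The DMSO peaks of regions missing from 1 DMSO library have medians of 86.0% and 87.8%, against 37.1% to 42.7% for regions called in all 4.

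Fold enrichment and −log10 p were used to recover the whole reads behind each summit. The input libraries were shallow, with 2.67 to 3.04 M reads. Over the calling libraries, the local input level at the summits had medians of 5 to 8.89 reads and went down to 0.246. A high fold in the regions named below can therefore rest on few input reads. The calling DMSO library had a median of 116 ChIP reads at the summit where DMSO replicate 1 lacked the peak and 74 where DMSO replicate 2 did. The reads of the missing library itself are unknown. At the calling DMSO library's input level, the missing library's threshold asked for a median of 58 reads. Scaled to that library's depth, the calling DMSO summits had a median of 97.1 and reached the number asked for in 432 of 433 regions. With the highest input of the 3 calling libraries it was 397 (91.7%). These summits had passed in their own library, so such counts say little about the missing one. Why its peak was missing was not tested. The calling DMSO peaks closest to the q-value threshold of 0.05 had a −log10 q of 1.44 in DMSO replicate 2 and 1.41 in DMSO replicate 1. Values under 5 were found for 61 of 280 (21.8%) and 29 of 153 (18.95%). In regions called in all 4, the lower of the 2 DMSO values was under 5 in 187 (1.81%).

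In 104 of the 433 regions (24.02%) the library without a peak had one within 1 kb of the region's edge, against 155 of the 855 regions of the mirror class (18.1%), a difference of 5.9 points (1.2 to 10.8). Such a peak lay within 500 bp in 79 regions (18.2%, against 14.4% of the mirror class) and within 5 kb in 145 (33.5%, against 30.5%). These distances come from the same peak calls as the rule, so the shares describe how the calls were placed.

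Promoters made up 287 of the 433 regions (66.3%), counted as summits within 3 kb of the start of a protein-coding transcript. This share was 20.6 percentage points below that of regions called in all 4 libraries (95% Newcombe interval 16.2 to 25.2 points below). It differed by 1.3 points from regions missing from 1 I-BET151 library, with an interval from 6.8 points lower to 4.0 higher. The promoter share differed by replicate number in both treatments. Promoters were 203 of the 280 missing from DMSO replicate 1 (72.5%) and 84 of the 153 missing from DMSO replicate 2 (54.9%). That difference was 17.6 points (8.2 to 26.9). In the mirror class, promoters were 75% of the regions missing from I-BET151 replicate 1 and 63.8% of those missing from I-BET151 replicate 2. Introns held 194 of the summits (44.8%), intergenic sequence 81 (18.7%), untranslated exons 75 (17.3%), coding exons 48 (11.1%) and noncoding exons 35 (8.1%). Over all merged regions the shares were 42.5%, 13.2%, 21.1%, 14.4% and 8.8%, so the share in introns was near that of all regions. Of the promoter regions, 39 (13.6%) lay near the starts of at least 2 protein-coding genes, so a peak there cannot be given to 1 gene.

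The best-ranked promoter missing from DMSO replicate 1 was that of MCM2, a subunit of the helicase that unwinds replication origins. Its region (chr3:127598386-127598787, summit in an intron 161 bp downstream of the start) had a fold enrichment of 10.2 in DMSO replicate 2, 7.64 in I-BET151 replicate 1 and 10.1 in I-BET151 replicate 2. The DMSO library that called it had the highest fold of the 3, but the fewest reads, with 177 (18.0 reads per M ChIP reads) against 212 (27.3) and 240 (29.9). It is shared with the divergent gene TPRA1, whose own start carried a separate region missing from DMSO replicate 2. The printed MCM2 sequence holds 1 SP/KLF match, and the 500 bp window also held an NFY and an E-box motif (CACGTG).

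MEX3B, which encodes an RNA-binding protein, had 2 regions missing from DMSO replicate 1, on either side of its start. The region over the untranslated first exon (chr15:82045200-82046107) had a fold of 3.63 in DMSO replicate 2, 8.78 in I-BET151 replicate 1 and 10.4 in I-BET151 replicate 2. The upstream region (chr15:82046474-82047041) had 3.56, 5.82 and 6.44 in the same order. Both I-BET151 values were above the DMSO value in each region, and the nearest peak of DMSO replicate 1 was 492964 bp away.

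TLE2, a Groucho-family corepressor that acts with HES proteins, had a region 258 bp inside its start (chr19:3047143-3047608). Its fold was 5.51 in DMSO replicate 2, 5.86 in I-BET151 replicate 1 and 14.1 in I-BET151 replicate 2. Here the 2 I-BET151 libraries differed more from each other than I-BET151 replicate 1 did from DMSO replicate 2. ZNF521, a zinc-finger protein of progenitor cells, had a region of 3.64, 6.79 and 6.07 at chr18:25349448-25351272, and a gained region lay 1911 bp from its summit.

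Of promoters missing from DMSO replicate 2, the best-ranked was that of CLGN, a chaperone of the endoplasmic reticulum (chr4:140426796-140427670). It had a fold of 2.51 in DMSO replicate 1, 5.08 in I-BET151 replicate 1 and 12.7 in I-BET151 replicate 2. Its printed sequence holds the reverse complement of CCAAT. The proapoptotic gene BID (chr22:17773894-17774591) had 3.26, 6.71 and 4.15, and ZNF688 (chr16:30569787-30570451) had 2.28, 8.09 and 4.84. CTIF, a factor of cap-dependent translation (chr18:48538621-48539995), had 5.71, 5.77 and 8.85, and ZFP64 (chr20:52104851-52105272) had 4.00, 4.72 and 6.89. In CTIF the calling DMSO library and I-BET151 replicate 1 had nearly the same value.

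Away from promoters, the best-ranked region missing from DMSO replicate 2 lay in an intron of MAML3, a coactivator of the Notch transcription complex, 148251 bp downstream of its start (chr4:140004471-140004971). The fold was 7.59 in DMSO replicate 1, 24.5 in I-BET151 replicate 1 and 16.3 in I-BET151 replicate 2, from 57, 185 and 144 reads. An intron of DLG5, a scaffold protein of epithelial junctions, held a region (chr10:77849256-77849717) with 3.25, 7.99 and 40.6. I-BET151 replicate 2 alone placed it at 1.21% of its list, against 39.3% in I-BET151 replicate 1. The region downstream of RPLP1 (chr15:69595517-69595951) had 7.57, 26.0 and 9.37, with the higher value in the other I-BET151 library. The remaining 2, in STEAP1B (chr7:22445314-22445776) and near SDF2L1 (chr22:21651575-21651997), had DMSO folds of 11.8 and 5.81 and I-BET151 folds of 7.17 to 18.4. The missing library had a peak 320 bp from the SDF2L1 region. An adjoining region near SDF2L1 (chr22:21652191-21653012) was instead missing from DMSO replicate 1, so both DMSO libraries had a peak in this stretch.

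Of distal regions missing from DMSO replicate 1, the region nearest OR13A1 (chr10:45259851-45260467, in a noncoding exon) stood out by its I-BET151 folds. Its fold was 4.79 in DMSO replicate 2, 25.6 in I-BET151 replicate 1 and 24.9 in I-BET151 replicate 2, from 78, 96 and 147 reads. The reads lay closer together than the folds. Fold is a ratio over local input, so part of the gap in fold lies in the input level. Its list position was 89.3% in the DMSO library and 25.8% and 18.1% in the I-BET151 libraries. An intron of ROR2, a receptor for WNT5A (chr9:91858016-91858494), had 10.1, 15.9 and 13.8, with a peak of the missing library 175 bp away. An intronic region of the IGF2 locus (chr11:2145241-2146550), which encodes a fetal growth factor, had 5.08, 11.0 and 11.3, with a peak of the missing library 312 bp away.

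A group of 4 regions lay upstream of NOTCH1, a Notch receptor, between chr9:136571634 and chr9:136628083. The group was singled out after its values were seen. The 2 far ones, nearest to EGFL7, had folds of 3.87 and 3.15 in DMSO replicate 2, 7.42 and 6.87 in I-BET151 replicate 1 and 10.2 and 7.24 in I-BET151 replicate 2, and gained regions lay 981 and 1216 bp away. The middle one, 42068 bp upstream of the NOTCH1 start, had 2.66, 4.35 and 3.20. In these 3, missing from DMSO replicate 1, both I-BET151 values were above the DMSO value. The nearest to NOTCH1, at 25718 bp and missing from DMSO replicate 2, went the other way, with 4.45 in DMSO replicate 1 and 3.33 and 3.46 in the I-BET151 libraries.

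Among the 20 best-ranked regions (5 promoters and 5 distal regions for each missing library), the DMSO fold was below both I-BET151 folds in 19, and MCM2 was the exception. Over all 433 regions it was below both in 214 (49.4%) and above both in 96 (22.2%). The fold of DMSO replicate 2 was below both in 49.3% of the regions missing from DMSO replicate 1, against 35.5% of regions called in all 4. That of DMSO replicate 1 was below both in 49.7% of the regions missing from DMSO replicate 2, close to the 45.9% of regions called in all 4. By reads at the summit scaled to depth, the DMSO peak was below both in 69.5% of the 433. This was 72.5% of the regions missing from DMSO replicate 1, against 49.9% for DMSO replicate 2 in regions called in all 4, and 64.1% of those missing from DMSO replicate 2, against 30.9% for DMSO replicate 1. The best-ranked regions were chosen on list positions, so this count describes them and carries no test.

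**Figure D3:**
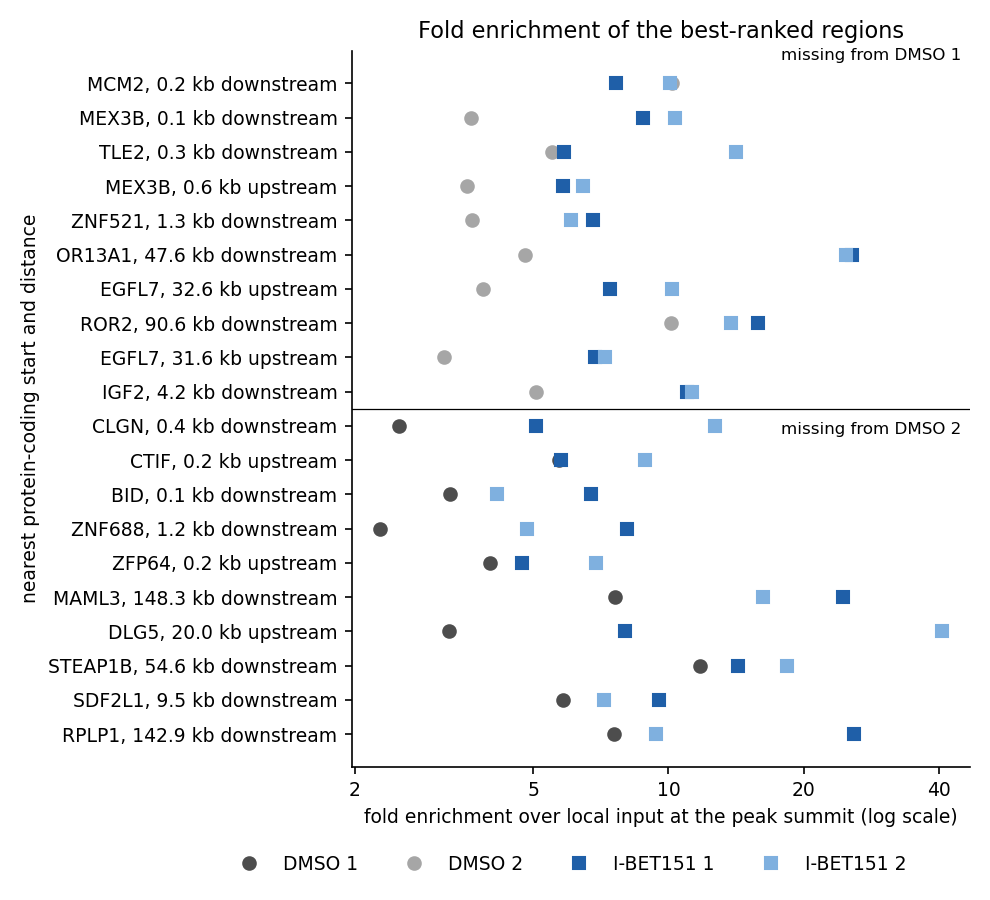
Fold enrichment over local input (log scale) in the 3 libraries that called each of the 20 best-ranked regions, named by the nearest protein-coding start and the distance to it. Circles are DMSO and squares I-BET151 libraries. The DMSO circle is left of both squares in every region but that of MCM2, and DMSO values run from 2.28 to 11.8 where I-BET151 values run from 4.15 to 40.6.

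By list position, the regions whose DMSO peak was the farthest ahead of the I-BET151 peaks were at GBF1, BCAT1 and SLC9A7, all missing from DMSO replicate 1. GBF1, an exchange factor of Golgi transport, had an intronic region (chr10:102301424-102301746) with a fold of 14.5 in DMSO replicate 2 against 9.75 and 7.13 in I-BET151 replicates 1 and 2. The promoter of BCAT1, which starts the breakdown of branched-chain amino acids, had 11.2 against 2.84 and 4.57 (chr12:24948811-24949268). SLC9A7, a sodium/proton exchanger (chrX:46759066-46759572), had 11.7 against 4.23 and 2.85. A peak called once in DMSO was therefore not always the weakest one.

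The fixed gene lists held 276 genes in 14 lists, of which 10 genes had such a region within 3 kb of a start. The replication list held 5 of its 40 genes (12.5%), against 1.58% of all protein-coding genes. They were MCM2 and MCM6, helicase subunits, ORC1, the largest subunit of the origin recognition complex, E2F1, the activator of S phase genes, and CDKN2A, which encodes inhibitors of the cell cycle. They did not share a direction. MCM6 (chr2:135875752-135876377) had a fold of 5.53 in DMSO replicate 2 and 3.38 and 3.45 in the I-BET151 libraries, whereas CDKN2A (chr9:21994040-21994816) had 2.14 against 4.77 and 4.77. E2F1 (chr20:33685781-33686379) had 3.67 against 2.92 and 6.11. ORC1, which shares its region with PRPF38A, had 6.83 in DMSO replicate 1 against 12.0 and 4.84 (chr1:52404106-52404431). In both of these the DMSO value lay between the I-BET151 values. The same list had 29 genes (72.5%) with a region called in all 4 libraries at a start, against 45.4% of all protein-coding genes. The mesenchymal list also reached 12.5%, as 2 of its 16 genes had such a region missing from 1 DMSO library at a start.

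The other 5 genes came from 4 lists. HES6, a bHLH factor that opposes HES1 (chr2:238239468-238239970), was the 1 Notch pathway gene of 32, with a fold of 3.10 in DMSO replicate 2 and 3.08 and 4.14 in the I-BET151 libraries. ID1, an inhibitor of bHLH factors and a target of BMP signalling (chr20:31603975-31604528), had 2.11 against 4.08 and 3.78, and DMSO replicate 1 had a peak 441 bp away. EGR2, an immediate early factor (chr10:62816434-62816748), had 5.01 against 4.77 and 6.30. The mesenchymal list gave ZEB2, a repressor of epithelial genes (chr2:144515815-144516206), with 3.39 against 4.01 and 5.31, and PDGFRB, a growth factor receptor (chr5:150136817-150137253), with 7.27 in DMSO replicate 1 against 6.84 and 6.50. The missing library had a peak 391 bp from the ZEB2 region and 309 bp from the PDGFRB region. The PP factor list, with 23 genes, had none at a start.

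Within 50 kb of the gene, 29 genes of the lists had such a region, including SOX9, ONECUT1 and MNX1 of the PP factors. The ONECUT1 region, 13738 bp upstream (chr15:52803716-52804292), had a fold of 2.61 in DMSO replicate 1 and 5.57 and 3.40 in the I-BET151 libraries. The SOX9 region, 4077 bp upstream (chr17:72116742-72117093), had 5.31 against 4.07 and 3.62, and the MNX1 region (chr7:156993072-156993561) had 3.50 in DMSO replicate 2 against 3.72 and 3.80. A region 42788 bp upstream of HES1 (chr3:194093138-194093495) had 10.2 in DMSO replicate 1 against 11.5 and 8.87. Both I-BET151 values were above the DMSO value in the ONECUT1 region and, by little, in the MNX1 region, but not in the SOX9 and HES1 regions. For all protein-coding genes, 5.34% had such a region within 50 kb.

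GC content followed the replicate number in both treatments. The median over 500 bp around the summit was 66.8% in regions missing from DMSO replicate 1 and 62.0% in those missing from DMSO replicate 2. It was likewise 68.4% and 61.2% in regions missing from I-BET151 replicates 1 and 2. Regions called in all 4 had a median of 69.0%. Among regions of under 60% GC called in the other 3 libraries, 4.82% were missing from DMSO replicate 1, 6.06% from DMSO replicate 2, 3.34% from I-BET151 replicate 1 and 20.0% from I-BET151 replicate 2. At 70% GC and over, the shares were 2.13%, 0.390%, 2.63% and 1.18%. From the lowest to the highest class the share thus fell by a wider margin in the second replicates than in the first. The part of GC content in which regions were missing was not tested.

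**Figure D4:**
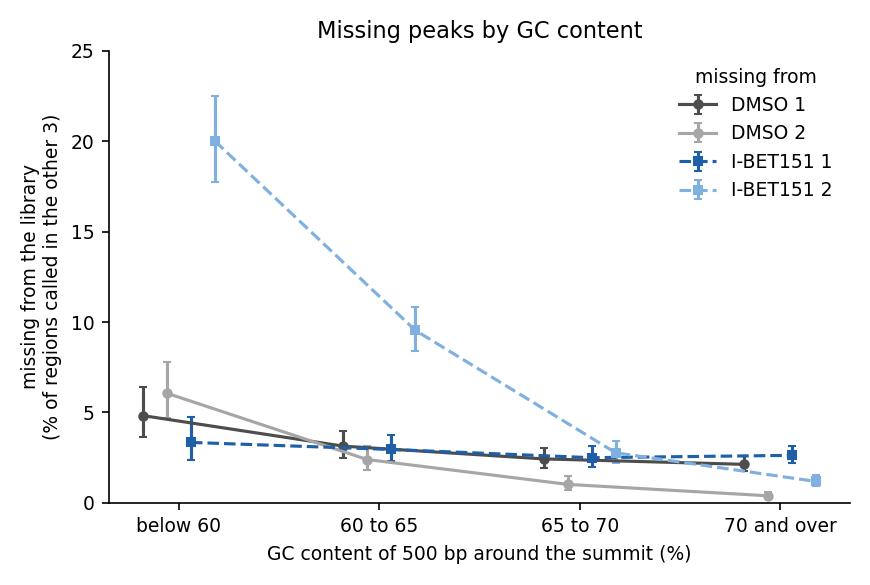
Share of regions missing from each library, of those called in the other 3, in 4 classes of GC content over 500 bp around the summit. Bars are 95% Wilson intervals. I-BET151 replicate 2 falls from 20.0% to 1.18% and DMSO replicate 2 from 6.06% to 0.390%, while I-BET151 replicate 1 stays between 2.5% and 3.34%.

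Windows with a GC content of at least 55% and an observed-to-expected CpG ratio of at least 0.65 were counted as CpG-dense. They were 268 of the 433 regions (61.9%), with 70.4% where DMSO replicate 1 lacked the peak and 46.4% where DMSO replicate 2 did. In the mirror class, the shares were 63.2% and 40.2%.

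Of the 13 motifs searched on both strands within 250 bp of the summit, 4 differed in share between these regions and those called in all 4, in that the 95% interval of the difference did not include 0. The NFY motif was in 34.2% against 25.2% (8.98 points higher, 4.59 to 13.6). The mirror class held it in 32.2%, and the difference of 2.02 points from it had an interval from 3.36 lower to 7.52 higher. The homeobox motif TAATTA, a core of sites such as that of PDX1, was in 3.23% against 1.59% (1.64 points higher, 0.32 to 3.78). The SP/KLF motif was in 51.5% against 60.5% and the ETS motif in 10.4% against 16.9%. For ETS the difference was found at promoters (7.02 points lower) but not away from them (0.42 points higher, with an interval that included 0). The intervals for the homeobox and SP/KLF motifs included 0 once promoters and other regions were taken apart. At promoters, the E-box motif was in 13.6% of these regions, against 9.82% of regions called in all 4 (3.77 points higher, 0.22 to 8.26). Against the 9.0% of the mirror class, these regions were 4.59 points higher (0.24 to 9.5). Over 200 bp, the promoter E-box differences were 0.89 and 1.07 points, and both intervals included 0. The ETS difference from regions called in all 4 was 1.72 points lower over 200 bp, and its interval also included 0.

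The NFY motif also differed in share between the DMSO libraries. It was in 29.6% of the regions missing from DMSO replicate 1 and 42.5% of those missing from DMSO replicate 2. This difference was 12.8 points (3.44 to 22.2). At promoters it was 8.05 points, with an interval that included 0. The NFY motif is short and is rarer in GC-rich sequence. In regions called in all 4 its share ran from 41.4% below 60% GC to 15.4% at 70% and over. Within each of the 4 GC classes the interval of the difference between these regions and those called in all 4 included 0. The difference ran from 8.09 points higher at 60 to 65% GC to 3.49 points lower at 70% and over. Against the mirror class, these regions held the AP-1 motif (TGANTCA) in 5.08% against 8.65% (3.57 points lower, 0.55 to 6.26) and the TEAD motif in 17.8% against 23.4% (5.61 points lower, 0.87 to 10.1). The motifs of FOXA, GATA, SOX, ONECUT and RBPJ, factors of the PP and Notch programmes, were in 2.31%, 2.31%, 4.39%, 1.62% and 12.2% of these regions, and none of their intervals against regions called in all 4 left out 0.

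Since these regions were weak and regions called in all 4 were mostly strong, the classes were also compared at mean list positions of 70 to 90%, a comparison chosen after seeing the data. There 277 of the 433 regions, 523 of the mirror class and 1355 of the regions called in all 4 remained. The promoter share was 68.2%, 68.3% and 76.8%, so that the distance from regions called in all 4 narrowed to 8.5 points (2.8 to 14.6). The NFY motif was again more frequent than in regions called in all 4, at 37.2% against 26.7% (10.5 points, 4.5 to 16.7). GC content was not held equal, with medians of 64.2% in these regions and 67.2% in regions called in all 4. Their median list positions were 80.4% and 77.2%. The intervals for the SP/KLF, ETS and homeobox motifs included 0. The E-box motif, with promoters and other regions together, was in 9.03% against 12.2%, and its interval included 0. Against the mirror class, the intervals for the NFY, AP-1 and TEAD motifs also included 0. At these positions the NFY motif was in 33.3% and 44% of the regions missing from DMSO replicates 1 and 2. The interval of that difference included 0 (22.4 points lower to 1.1 higher). Regions missing from I-BET151 replicates 1 and 2 held it in 23.7% and 34.3%, a difference of 10.6 points (2.2 to 18.3).

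Regions lost with I-BET151 were less often nearby. Over all 433 regions, 10.9% had a lost region within 50 kb, against 15.5% of the regions called in all 4 (4.6 points lower, 1.3 to 7.3) and 26.5% of the mirror class (15.7 points lower, 11.3 to 19.7). At list positions of 70 to 90%, 7.58% had a lost region within 50 kb, against 26.2% of the mirror class (18.6 points lower, 13.4 to 23.3) and 18.6% of the regions called in all 4 (11.0 points lower, 6.8 to 14.4). Leaving out the nearest 5 kb gave 6.86%, 21.2% and 15.5%. Gained regions within 50 kb were near 10.6% of all 433, against 4.50% of regions called in all 4 and 5.03% of the mirror class. At list positions of 70 to 90% the shares were 8.66%, 5.68% and 5.54%, and both intervals of the difference included 0. The rule and the classes gained and lost use the same 4 libraries, so these shares describe how the calls were placed.

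**Figure D5:**
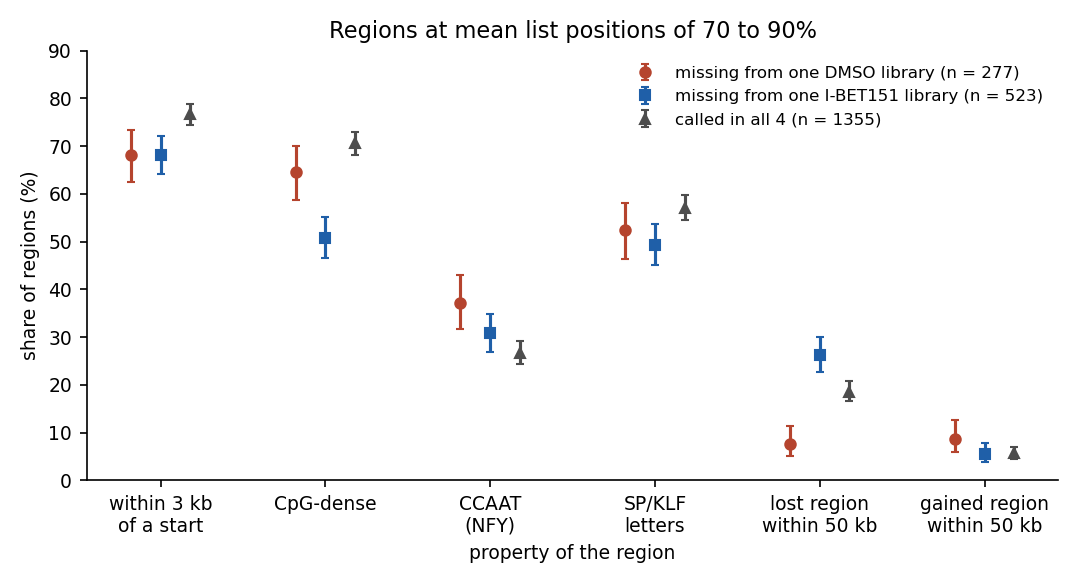
Shares of regions with a property, at mean list positions of 70 to 90%, for regions missing from 1 DMSO library, from 1 I-BET151 library, and called in all 4. Bars are 95% Wilson intervals. A lost region within 50 kb was found for 7.58%, 26.2% and 18.6%, and the NFY motif for 37.2%, 30.8% and 26.7%.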

How the data were processed

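H3K27ac was measured by ChIP-seq in 2 DMSO and 2 I-BET151 libraries, grouped and numbered by their titles. The authors trimmed and aligned reads to hg38 with Bowtie2 (2.2.5, local mode), removed duplicates and mitochondrial reads and called peaks for each library against its input with MACS2 (2.1.2, default settings). The deposited lists give each peak's interval, summit, fold enrichment (a ratio over local background), −log10 p and −log10 q, and a score that was not used.

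Merging, classes and shares were computed in Python (numpy 2.4.6, scipy 1.17.1, pandas 2.3.3). Whole ChIP reads, input levels and depth were worked out from fold, with its pseudocount of 1, and −log10 p, and the step was tested on simulated data. Starts came from GENCODE release 44. Shares have Wilson and differences Newcombe 95% intervals. With 2 libraries a treatment and calls as the selection, no test between treatments was made. Regions and gene lists were chosen with earlier results of these data known. Named regions were, for each missing library, the 5 best-ranked promoter and 5 best-ranked distal regions by mean list position, those within 3 kb of a start of a fixed-list gene, and the 3 largest list position differences in each direction. Alternatives were another merging distance, a −log10 q of at least 5, equal list lengths, 50% coverage, autosomes, other start, GC and motif windows, and leaving out each I-BET151 library.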

Additional observations from a re-analysis of the deposited data

Results flagged for a closer look

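The input libraries, which had no peak list, showed signal of their own at these regions. The local input level at the summit, worked out from the fold and −log10 p of the ChIP peaks, had a median of 16.3 times the genome-wide level in DMSO replicate 1 (153 regions), 33.6 in DMSO replicate 2 (280), 31.1 in I-BET151 replicate 1 (433) and 32.5 in I-BET151 replicate 2 (433). It was singled out because input is not the measurement the comparisons use. The DMSO values belong to different regions and are not to be set against each other. In regions called in all 4 libraries the medians were 41.5 to 49.0, so high input was not a mark of the regions described here.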

How the results depend on the processing

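No paired analysis was possible because no result comes from a test between groups, and the replicate numbers join only 2 pairs of libraries. Equal list lengths gave 296 regions missing from DMSO replicate 2 and a promoter share of 71.6%, against 299 missing from DMSO replicate 1. Leaving out I-BET151 replicate 1 or 2 gave 575 to 683 regions, 375 to 426 missing from DMSO replicate 1 and 200 to 257 from DMSO replicate 2, with a promoter share of 61.3% to 67.0%. Leaving out a DMSO library leaves the rule undefined. A 1 kb start window gave a promoter share of 59.4% and starts of all genes 76.7%. A peak of the missing library was near 18.2% within 500 bp and 33.5% within 5 kb. The median GC content was 69% over 200 bp. Ordered by fold, median list positions were 79.3% (DMSO) and 73.3% (I-BET151). By fold, the DMSO peak was weaker than both I-BET151 peaks in 49.4%. Away from promoters 1 of the motif differences was left, and 29 list genes had a region within 50 kb. Differences from regions called in all 4, in points, turned for AP-1 (-0.39 in promoters, -2.20 away), SOX (-0.16 in promoters), FOXA (-0.0324 over 200 bp, -1.04 away), GATA (-0.87 away), ONECUT (-0.0114 over 200 bp, -0.0483 in promoters), TEAD (-1.99 away), E-box (-3.40 away), ETS (0.42 away) and CRE (0.18 in promoters). Of 83 recomputed values, 48 kept their direction and side of the threshold or stayed within their limit, and 17 left that limit. Another 5 kept their direction with an interval that now included 0, 1 had an interval that no longer did, and 12 turned in direction. The 48 include the count of calling DMSO summits with the reads asked for. It went from 432 to 397 with the highest input and was put there without a computed limit. The rule held again for 305 of 433 regions at a −log10 q of at least 5, 210 at equal list lengths, 347 with merging within 500 bp and 355 at 50% coverage. The reads of a missing peak are not given, so absence of a call does not show absence of the mark.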
